A study of Mus musculus with 16 samples.

Results

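The cytochrome P450 genes of families 1 to 4 were taken as the genes whose symbol is Cyp1, Cyp2, Cyp3 or Cyp4 followed by a letter and a number with nothing after it. Of 19505 genes measured, 72 met this rule: 3 in the Cyp1 family, 46 in Cyp2, 7 in Cyp3 and 16 in Cyp4. Of these, 71 are annotated as protein coding, and Cyp2d13 is not. Another 8 symbols carry a letter or a pseudogene suffix after the number and were left out.

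RNA was measured on Clariom S microarrays, which carry short DNA probes for each gene and report a signal on the log2 scale. Olfactory mucosa was taken from S100a5-tauGFP mice, the sole allele that the labels give and one that all groups share. S100a5 is a gene of mature olfactory sensory neurons whose expression depends on odor-driven activity, so GFP, here joined to tau, marks such neurons. The mice were of both sexes and 7 to 12 weeks old, were kept singly for 40 h in chambers at an air flow of 3.1 L/min, and from 26 h onward were given pulses of 10 s, repeated every 20 min, of either octanol or, as vehicle, filtered air. Dissociated cells of 3 mice were pooled and sorted by fluorescence into a GFP+ and a GFP- fraction. The 24 mice made 8 pools, and there were 4 arrays each of octanol GFP+ cells, of octanol GFP- cells, of vehicle GFP+ cells and of vehicle GFP- cells.

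Cytochrome P450 enzymes are heme proteins that insert 1 oxygen atom into their substrate, with electrons from P450 reductase and, for some reactions, cytochrome b5. Families 1 to 4 handle foreign compounds, steroids, fatty acids and arachidonic acid. The olfactory mucosa is known to be rich in them, mainly in the sustentacular (supporting) cells of the epithelium and in the Bowman glands beneath it, where they metabolise odorants and other inhaled chemicals. Sensory neurons are not known as a major site of the nasal enzymes of the Cyp1a, Cyp2a, Cyp2f and Cyp2g subfamilies.

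The 250 bases upstream of the annotated start are shown for 6 members on whose values the results turn, so that the near-identical pair Cyp2a5 and Cyp2a4 can be set beside neighbours on the same chromosome and beside members with other expression patterns. They are from RefSeq on mouse assembly GRCm38.p6, each written from 5′ to 3′ on the strand of its gene. On the plus strand lie Cyp2a5 (chr7:26835089-26835338), Cyp2a4 (chr7:26306942-26307191) and Cyp2f2 (chr7:27119705-27119954). On the minus strand lie Cyp1a2 (chr9:57683656-57683905), Cyp2s1 (chr7:25816526-25816775) and Cyp4f18 (chr8:72009627-72009876). Capitals mark the TATA box letters TATAAA and the half-site TTGGC of nuclear factor I (NFI) proteins, on either strand.
Cyp2a5: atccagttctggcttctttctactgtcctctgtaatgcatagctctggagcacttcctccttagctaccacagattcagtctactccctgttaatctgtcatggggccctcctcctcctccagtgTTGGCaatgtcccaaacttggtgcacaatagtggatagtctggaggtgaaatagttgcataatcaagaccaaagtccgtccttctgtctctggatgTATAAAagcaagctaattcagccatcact
Cyp2a4: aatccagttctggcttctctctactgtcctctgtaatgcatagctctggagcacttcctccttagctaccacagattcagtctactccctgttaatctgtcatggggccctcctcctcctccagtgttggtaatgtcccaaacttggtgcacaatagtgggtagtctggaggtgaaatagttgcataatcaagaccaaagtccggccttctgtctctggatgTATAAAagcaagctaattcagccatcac
Cyp2f2: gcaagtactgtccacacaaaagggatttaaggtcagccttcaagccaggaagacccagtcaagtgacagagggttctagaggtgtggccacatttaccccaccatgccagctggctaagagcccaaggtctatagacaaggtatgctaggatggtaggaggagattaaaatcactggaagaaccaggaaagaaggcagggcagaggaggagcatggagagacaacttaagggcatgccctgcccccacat
Cyp1a2: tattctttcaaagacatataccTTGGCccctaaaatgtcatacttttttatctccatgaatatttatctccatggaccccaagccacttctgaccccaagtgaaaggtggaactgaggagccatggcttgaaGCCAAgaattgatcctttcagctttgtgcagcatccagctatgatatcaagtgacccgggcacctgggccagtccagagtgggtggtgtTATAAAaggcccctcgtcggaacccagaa
Cyp2s1: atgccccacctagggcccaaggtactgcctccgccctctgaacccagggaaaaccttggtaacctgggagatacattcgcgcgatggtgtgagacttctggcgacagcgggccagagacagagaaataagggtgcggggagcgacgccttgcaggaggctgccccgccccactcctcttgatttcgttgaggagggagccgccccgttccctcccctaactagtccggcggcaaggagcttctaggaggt
Cyp4f18: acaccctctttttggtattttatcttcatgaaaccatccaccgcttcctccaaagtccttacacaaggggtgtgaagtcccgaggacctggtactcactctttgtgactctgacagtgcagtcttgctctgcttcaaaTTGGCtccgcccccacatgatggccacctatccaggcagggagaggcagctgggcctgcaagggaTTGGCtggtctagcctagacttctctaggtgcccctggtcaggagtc

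The Cyp2a5 and Cyp2a4 windows were 97.6% identical over their alignment, with 245 identical bases, 4 mismatches and 2 gap positions, while the other pairs of the 6 windows were 42.9% to 48.7% identical. Cyp2a5 held TTGGC at -125 to -121 from the start and TATAAA at -29 to -24. Cyp2a4 held TATAAA at -28 to -23 and no TTGGC. Cyp1a2 held TATAAA at -29 to -24, TTGGC at -228 to -224 and TTGGC on the other strand at -118 to -114. Cyp4f18 held TTGGC at -112 to -108 and at -47 to -43.

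The letters GCGTG, the core bound by the aryl hydrocarbon receptor, and CCCNNGGG, the core bound by the EBF factors of olfactory neurons, were also searched on both strands and were in none of the 6 windows. No motif searched was in the Cyp2f2 or Cyp2s1 window. The Cyp2s1 window was 62.0% G and C, against 46.4% for Cyp2a5. Promoter windows were found for 59 of the 72 members, 66 windows in all, since a gene can have several. TATAAA was in 22 of the 66 (33.3%, against 12.4% of 32851 windows of all genes), TTGGC in 41 (62.1%, against 41.5%), GCGTG in 12 (18.2%, against 28.2%) and CCCNNGGG in 2 (3.03%, against 11.8%). A window can hold more than 1 of these motifs.

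A background level of 6.32 log2 was set from 321 vomeronasal receptor genes, most of which are used by cells outside this tissue, as the 95th percentile of their mean signals. Over 16 arrays, 24 members had a mean above it, 33.3% of the 72, against 66.1% of all genes. On all 16 arrays 18 members were above background: Cyp1a2 in the Cyp1 family, 13 members of Cyp2 (Cyp2a4, Cyp2a5, Cyp2c23, Cyp2d9, Cyp2d10, Cyp2d13, Cyp2f2, Cyp2g1, Cyp2j6, Cyp2j9, Cyp2j12, Cyp2s1 and Cyp2u1), none of Cyp3, and Cyp4f13, Cyp4f16, Cyp4f18 and Cyp4f37 in Cyp4. On no array were 41 members above it, and 13 were above it on some. Members with no array above background included Cyp1a1, the enzyme most strongly induced through the aryl hydrocarbon receptor, Cyp1b1, another target of that receptor, Cyp2e1, which oxidises ethanol, and Cyp2d22.

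The fractions were checked against lists of cell type genes. The summed linear signal of 9 mature sensory neuron genes, which include the olfactory marker protein gene Omp, was 1250000 to 1340000 on octanol GFP+ arrays and 1040000 to 1110000 on octanol GFP- arrays, against 1210000 to 1300000 on vehicle GFP+ and 1040000 to 1170000 on vehicle GFP- arrays. In this sum the GFP+ arrays were above the GFP- arrays, which also held these genes far above background. Of the 9 genes, 5 were higher in GFP+ cells after octanol and 4 after vehicle, and 0 were lower. Their median difference was 0.30 log2 after octanol and 0.19 log2 after vehicle, against 0.14 and 0.13 log2 for all genes. Omp itself did not pass in limma (0.12 log2, adjusted p = 0.348 after octanol, and 0.07 log2, adjusted p = 0.613 after vehicle). These limma calls moved with the scaling. With arrays centred on their median Omp was higher (0.39 log2, adjusted p = 0.00439, and 0.40 log2, adjusted p = 0.00334). With arrays centred on odorant receptor genes the genes called higher lost their calls after each exposure. Omp (-0.38 log2, adjusted p = 0.0131) and some other genes of the list then passed as lower after octanol. All 7 neutrophil genes were lower in GFP+ cells after each exposure, by a median of -6.80 log2 after octanol and -8.19 log2 after vehicle. All array medians lay between 7.42 and 7.70 log2.

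The first comparison asked how P450 genes differ between cells with and without the activity-dependent reporter. Cyp1a2, Cyp2a5, Cyp2f2 and Cyp2g1 were lower in GFP+ than in GFP- cells after either exposure, Cyp1a2 by 2.43-fold after octanol and 2.74-fold after vehicle, and Cyp2g1 by 1.84-fold and 1.97-fold. Cyp2a4 did not pass the test. Cyp4f18, a leukotriene B4 hydroxylase of myeloid cells, was 2.72-fold lower after octanol and 2.12-fold lower after vehicle. Cyp2s1 and Cyp2u1 were higher in GFP+ cells, each by about 1.4-fold to 1.5-fold.

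After octanol, GFP+ cells had 9 members higher and 7 lower at an adjusted p under 0.05 in limma, among 29.9% of all genes called (16.7% higher and 13.2% lower). After vehicle the counts were again 9 higher and 7 lower, among 28.2% of all genes called (14.7% higher and 13.5% lower). The median difference of the members was 0.18 log2 after either exposure, against 0.14 log2 for all genes after octanol and 0.13 log2 after vehicle. The share of members called, 16 of 72 each time, is under that of all genes, which were not matched for level. Only 33.3% of members had a mean above background, against 66.1% of all genes, and genes above background were called more often than genes under it. Every one of the 4 pools gave the same direction for 17 members higher and 10 lower after octanol (47.3% of all genes in either direction) and for 17 higher and 11 lower after vehicle (47.7%).

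Members above and under background stood apart in these counts. Of the 24 with a mean above background, 2 were higher and 7 lower after each exposure. Among all genes above background 20.8% were higher and 16.1% lower after octanol, and 17.6% higher and 16.4% lower after vehicle. The 7 lower members were the same genes after both exposures: Cyp1a2, Cyp2a5, Cyp2f2, Cyp2g1, Cyp2j12, Cyp4f16 and Cyp4f18. Of the 48 members with a mean under background, 7 were higher and 0 lower after each exposure (8.66% of such genes higher and 7.48% lower after octanol, 9.04% and 7.74% after vehicle), and only Cyp2j5 was called after both. Signals under background do not order RNA levels, so these 48 are given mostly by counts. Values are printed for Cyp1a1 and Cyp3a13, which were chosen by role, and do not order their RNA levels.

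**Figure D1:**
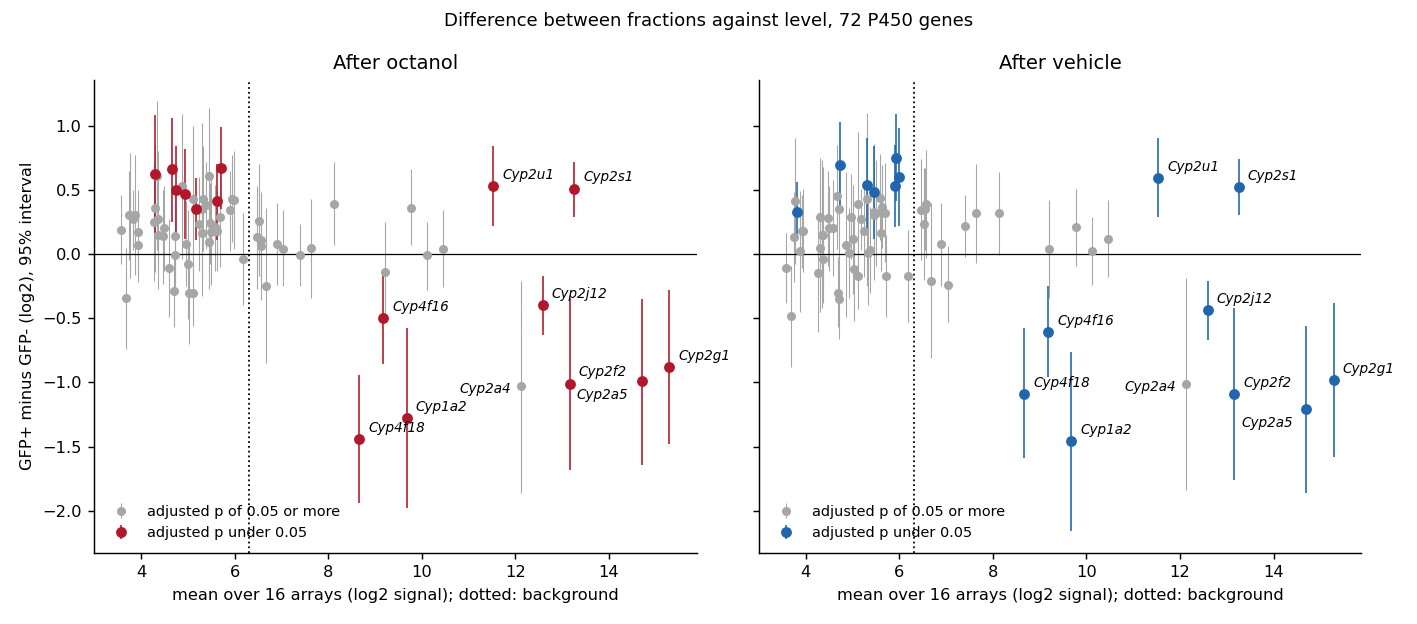
GFP+ minus GFP- difference (log2, with its 95% interval) against the mean log2 signal over 16 arrays for the 72 P450 genes, after octanol (left) and after vehicle (right), with coloured points for an adjusted p under 0.05 and a dotted line at the background of 6.32 log2. Right of the line the called genes other than Cyp2s1 and Cyp2u1 lie below 0, and left of it every called gene lies above 0.

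Cyp2g1 encodes a P450 that is largely confined to the olfactory mucosa. Its log2 signal was 14.45, 14.33, 15.75 and 15.06 on octanol GFP+ arrays and 15.98, 15.83, 15.97 and 15.32 on octanol GFP- arrays. It was 14.33, 14.41, 15.13 and 15.12 on vehicle GFP+ arrays and 15.76, 15.91, 15.71 and 15.53 on vehicle GFP- arrays. The fractions did not overlap after vehicle, and after octanol the GFP+ array of replicate 3 lay above the lowest GFP- array. The difference was -0.88 log2 (SE 0.27, adjusted p = 0.0343) after octanol and -0.98 log2 (SE 0.27, adjusted p = 0.0226) after vehicle. With arrays centred on their median the octanol value was -0.61 log2 and no longer passed (adjusted p = 0.0647).

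Cyp2a5 encodes coumarin 7-hydroxylase, which also oxidises nicotine. It had 13.86, 13.79, 15.35 and 14.55 log2 on octanol GFP+ arrays and 15.58, 15.51, 15.59 and 14.83 log2 on octanol GFP- arrays. It had 13.32, 13.45, 14.39 and 14.52 log2 on vehicle GFP+ arrays and 14.77, 15.28, 15.27 and 15.20 log2 on vehicle GFP- arrays. Here too the fractions overlapped after octanol and did not after vehicle. Cyp2a5 was 1.99-fold lower in GFP+ cells after octanol (-0.99 log2, SE 0.29, adjusted p = 0.0275) and 2.31-fold lower after vehicle (-1.21 log2, SE 0.29, adjusted p = 0.0115).

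Cyp2a4, a steroid 15-alpha-hydroxylase, is a near-identical copy of Cyp2a5, and RNA of either gene may reach the probes of the other, so their values are uncertain as separate measurements. Its signals were 11.36, 11.13, 12.51 and 11.96 log2 in octanol GFP+ cells and 13.29, 13.04, 12.77 and 12.00 log2 in octanol GFP- cells. They were 11.20, 11.00, 11.72 and 11.95 log2 in vehicle GFP+ cells and 12.04, 13.12, 12.58 and 12.18 log2 in vehicle GFP- cells. The highest GFP+ and lowest GFP- arrays crossed after octanol and did not cross after vehicle, where they were 11.95 and 12.04 log2. The difference of -1.03 log2 (SE 0.37, adjusted p = 0.0599) after octanol and -1.01 log2 (SE 0.37, adjusted p = 0.0668) after vehicle did not pass the threshold. Without the pool as a block it did (adjusted p = 0.029 after octanol and 0.034 after vehicle). It also passed with the pool as a random block (adjusted p = 0.02 after octanol and 0.0236 after vehicle) and with receptor centring (0.00867 and 0.0275). The octanol difference alone passed with quantile normalization (adjusted p = 0.0484) and without octanol pool 4 (-1.36 log2, adjusted p = 0.0357) or vehicle pool 2 (-1.03 log2, adjusted p = 0.0393).

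Cyp2f2 activates naphthalene and related aromatic compounds in airway and nasal epithelium. Its signals were 12.20, 12.25, 13.69 and 12.97 log2 on octanol GFP+ arrays, against 13.90, 13.95, 13.98 and 13.32 log2 on octanol GFP- arrays. They were 12.04, 12.10, 13.00 and 12.82 log2 on vehicle GFP+ arrays, against 13.42, 13.99, 13.53 and 13.39 log2 on vehicle GFP- arrays. As for Cyp2g1, the octanol GFP+ array of replicate 3 lay among the GFP- values. Cyp2f2 was lower in GFP+ cells by 2.01-fold after octanol (-1.01 log2, SE 0.30, adjusted p = 0.03) and by 2.13-fold after vehicle (-1.09 log2, SE 0.30, adjusted p = 0.0225).

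Cyp1a2 oxidises caffeine and aromatic amines and is a target of the aryl hydrocarbon receptor. It had 8.89, 8.89, 10.01 and 8.84 log2 on octanol GFP+ arrays and 10.70, 10.92, 10.77 and 9.37 log2 on octanol GFP- arrays. It had 8.45, 8.55, 9.34 and 8.96 log2 on vehicle GFP+ arrays and 10.35, 10.91, 10.09 and 9.80 log2 on vehicle GFP- arrays. The fractions overlapped after octanol through GFP+ replicate 3 and GFP- replicate 4 and did not overlap after vehicle. The difference was -1.28 log2 (SE 0.31, adjusted p = 0.0126) after octanol and -1.46 log2 (SE 0.31, adjusted p = 0.00669) after vehicle. Under all 4 scalings of the arrays it stayed past the threshold, between -1.78 and -1.01 log2 after octanol and between -1.76 and -1.12 log2 after vehicle. Its neighbour Cyp1a1 had 3.65 to 4.98 log2 over all arrays, under background throughout.

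**Figure D2:**
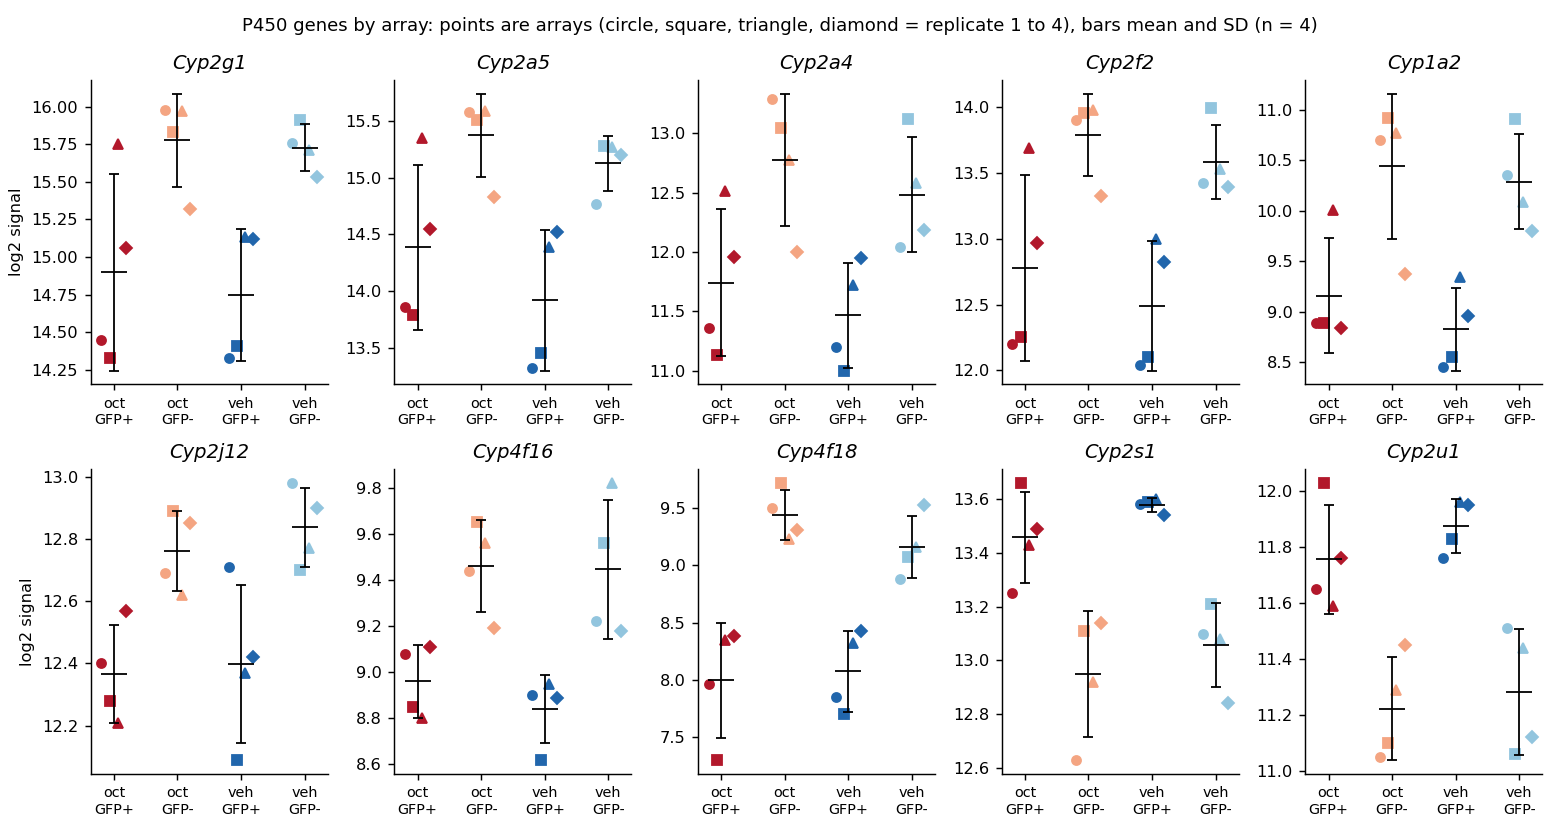
Log2 signal of 10 P450 genes on each of the 16 arrays (1 point an array, marker shape by replicate number), in 4 groups named below each panel, with bars for the mean and SD (n = 4). Each gene has its own axis. Cyp4f18, Cyp4f16, Cyp2s1 and Cyp2u1 separate the fractions of each exposure without overlap, while the 5 genes of the upper row overlap after octanol.

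These 5 genes, Cyp2g1, Cyp2a5, Cyp2a4, Cyp2f2 and Cyp1a2, differed less between fractions in some pools than in others. In the pools numbered 1 and 2 the GFP+ minus GFP- differences were between -2.36 and -0.85 log2. In the pools numbered 3 and 4 they were between -0.88 and -0.04 log2. This grouping of pools was made after the values were seen, and its ranges overlap. Pools that share a number across exposures are different mice. For Cyp2g1 the 4 pools gave -1.54, -1.50, -0.22 and -0.27 log2 after octanol and -1.43, -1.49, -0.59 and -0.41 log2 after vehicle. In vehicle GFP+ cells both arrays 1 and 2 were under arrays 3 and 4 for all 5 genes, and in octanol GFP+ cells for 4 of the 5. In octanol GFP- cells array 4 was the lowest for all 5. Without octanol pool 1 or octanol pool 2, the octanol differences of Cyp2g1, Cyp2a5 and Cyp2f2 no longer passed (adjusted p = 0.114 to 0.153). Without octanol pool 1, Cyp1a2 gave -1.11 log2 (adjusted p = 0.0659), and without octanol pool 2 it gave -1.04 log2 (adjusted p = 0.0594). Without vehicle pool 1 or 2 the vehicle differences of Cyp2g1, Cyp2a5 and Cyp2f2 were likewise lost (adjusted p = 0.0501 to 0.0954).

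Genes of the cells known to carry these enzymes were measured beside them. The mean of 10 sustentacular genes that are not P450s was 9.44, 9.39, 10.22 and 9.82 log2 on octanol GFP+ arrays and 10.65, 10.55, 10.61 and 10.10 log2 on octanol GFP- arrays. On vehicle GFP+ arrays it was 9.49, 9.21, 9.80 and 9.55 log2, and on vehicle GFP- arrays 10.38, 10.53, 10.27 and 10.30 log2. Array 3 was the highest of octanol GFP+ and array 4 the lowest of octanol GFP-, as for all 5 P450 genes. Of the 10, 3 were lower in GFP+ cells after each exposure: Krt18 (-2.92 log2 after octanol and -3.03 log2 after vehicle), Krt8 (-2.13 and -2.60 log2) and Notch2 (-1.86 and -1.61 log2). No other gene of the list passed or differed by as much, so the fraction difference of the list mean rests largely on these 3. Ephx1 differed by 0.37 log2 (adjusted p = 0.169) after octanol and 0.21 log2 (adjusted p = 0.434) after vehicle, in the opposite direction. The median of the list was -0.26 log2 after octanol and -0.31 log2 after vehicle. Its summed linear signal overlapped, at 185000 to 230000 on octanol GFP+, 197000 to 216000 on octanol GFP-, 205000 to 223000 on vehicle GFP+ and 198000 to 217000 on vehicle GFP- arrays.

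Of 6 Bowman gland genes, 5 were lower in GFP+ cells after each exposure, with a median of -0.83 log2 after octanol and -0.92 log2 after vehicle. Sox9, a transcription factor of these glands, differed by -3.28 log2 after octanol and -3.82 log2 after vehicle. The summed linear signal of the 6 was 10100 to 46900 on octanol GFP+ and 20100 to 57500 on octanol GFP- arrays, against 7160 to 41600 on vehicle GFP+ and 13900 to 58600 on vehicle GFP- arrays. Lists of other cell types were also lower in GFP+ cells. All 6 microvillar cell genes passed after each exposure (median -2.93 log2 after octanol and -2.80 log2 after vehicle), as did 5 of 7 immature neuron genes (-2.23 and -2.66 log2), 4 of 7 basal and progenitor genes (-0.86 and -1.18 log2) and all 4 lymphoid genes (-2.03 and -2.49 log2). The summed linear signal of the microvillar genes was 616 to 804 on octanol GFP+ and 4310 to 8120 on octanol GFP- arrays, against 547 to 889 on vehicle GFP+ and 5160 to 7340 on vehicle GFP- arrays. In such bulk samples, fewer cells of a type and less RNA per cell cannot be told apart, and the part of any of these cell types in the P450 differences was not tested.

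**Figure D3:**
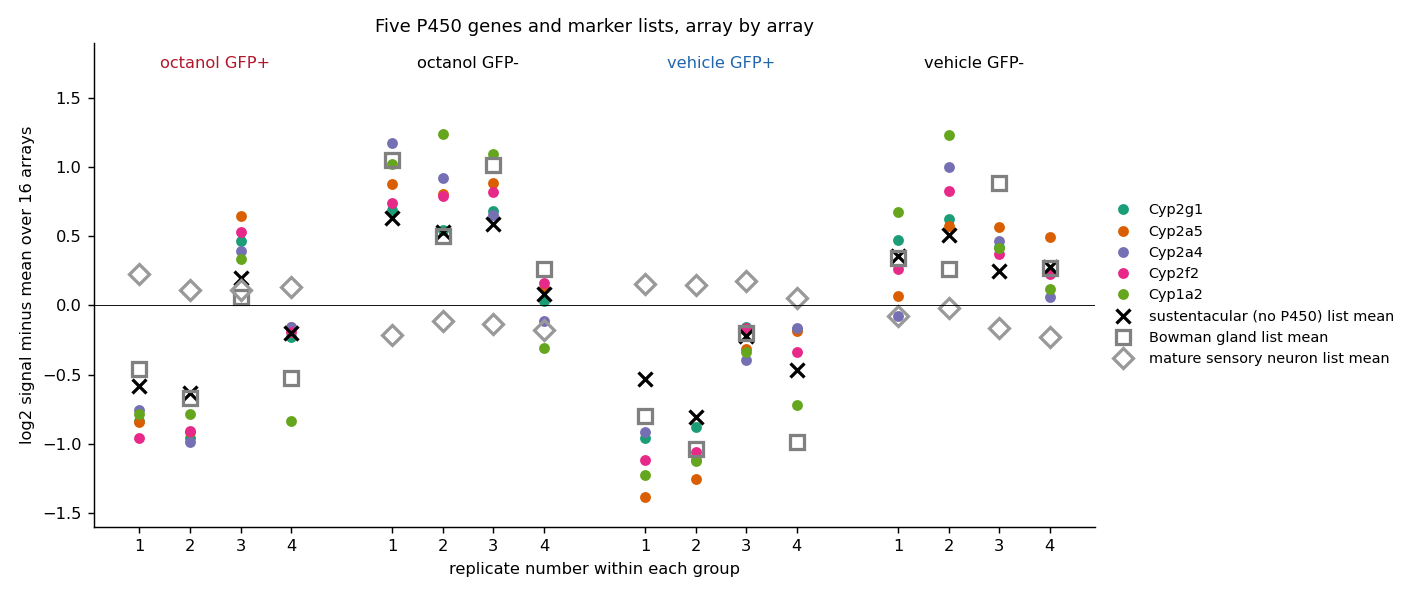
Log2 signal minus the mean over 16 arrays for Cyp2g1, Cyp2a5, Cyp2a4, Cyp2f2 and Cyp1a2 (coloured points) and the means of 3 marker lists (crosses, 10 sustentacular genes without P450s; squares, 6 Bowman gland genes; diamonds, 9 mature sensory neuron genes), by replicate number within the 4 groups. The points and crosses are highest in octanol GFP+ replicate 3 among the GFP+ arrays and lowest in octanol GFP- replicate 4 among the GFP- arrays of that exposure.

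The remaining lower members have other known sites or substrates. Cyp2j12 belongs to the arachidonic acid epoxygenases. Its log2 signals were 12.40, 12.28, 12.21 and 12.57 in octanol GFP+ cells, 12.69, 12.89, 12.62 and 12.85 in octanol GFP- cells, 12.71, 12.09, 12.37 and 12.42 in vehicle GFP+ cells, and 12.98, 12.70, 12.77 and 12.90 in vehicle GFP- cells. The fractions met within a few hundredths of a log2 unit after either exposure, while each of the 8 pools had the lower value in GFP+ cells. The difference was -0.40 log2 (SE 0.10, adjusted p = 0.0156) after octanol and -0.44 log2 (SE 0.10, adjusted p = 0.0101) after vehicle. With arrays centred on their median it was -0.13 log2 (adjusted p = 0.288) and -0.10 log2 (adjusted p = 0.376). It also lost its call without octanol pool 2 (-0.33 log2, adjusted p = 0.0691) and without vehicle pool 2 (-0.38 log2, adjusted p = 0.0509).

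Cyp4f16 belongs to a subfamily of fatty acid omega-hydroxylases. It had 9.08, 8.85, 8.80 and 9.11 log2 on octanol GFP+ arrays, 9.44, 9.65, 9.56 and 9.19 log2 on octanol GFP- arrays, 8.90, 8.62, 8.95 and 8.89 log2 on vehicle GFP+ arrays, and 9.22, 9.56, 9.82 and 9.18 log2 on vehicle GFP- arrays. Every GFP+ array was under every GFP- array of its exposure. The difference was -0.50 log2 (SE 0.16, adjusted p = 0.0381) after octanol and -0.61 log2 (SE 0.16, adjusted p = 0.0178) after vehicle. It was lost with median centring (-0.23 log2, adjusted p = 0.215, and -0.27 log2, adjusted p = 0.144) and with quantile normalization (-0.38 log2, adjusted p = 0.116, and -0.42 log2, adjusted p = 0.0841). The octanol call was lost without octanol pool 1, 2 or 3 (adjusted p = 0.0774, 0.139 and 0.132), and the vehicle call without vehicle pool 2 or 3 (adjusted p = 0.0781 and 0.0782).

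Cyp4f18 had 7.96, 7.30, 8.35 and 8.38 log2 on octanol GFP+ arrays and 9.50, 9.72, 9.23 and 9.31 log2 on octanol GFP- arrays. It had 7.85, 7.70, 8.32 and 8.43 log2 on vehicle GFP+ arrays and 8.88, 9.07, 9.16 and 9.53 log2 on vehicle GFP- arrays. The fractions were apart in both exposures, and all 16 values were above background. The difference was -1.44 log2 (SE 0.22, adjusted p = 0.00091) after octanol and -1.09 log2 (SE 0.22, adjusted p = 0.00533) after vehicle, and it passed under each alternative listed in the closing section. Beside it, the summed linear signal of 7 neutrophil genes was 2460 to 18700 on octanol GFP+ and 480000 to 767000 on octanol GFP- arrays, against 1090 to 2820 on vehicle GFP+ and 383000 to 626000 on vehicle GFP- arrays. That of 6 monocyte and macrophage genes was 1230 to 4720 on octanol GFP+ and 84600 to 164000 on octanol GFP- arrays, against 1180 to 1920 on vehicle GFP+ and 86200 to 147000 on vehicle GFP- arrays. All members of both lists were lower in GFP+ cells, and their part in the Cyp4f18 difference was not tested.

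Cyp2s1 is a P450 of epithelia outside the liver. Its signals were 13.25, 13.66, 13.43 and 13.49 log2 on octanol GFP+ arrays and 12.63, 13.11, 12.92 and 13.14 log2 on octanol GFP- arrays. They were 13.58, 13.59, 13.60 and 13.54 log2 on vehicle GFP+ arrays and 13.10, 13.21, 13.08 and 12.84 log2 on vehicle GFP- arrays. GFP+ cells were above GFP- cells without overlap. The 8 pools gave differences of 0.35 to 0.71 log2, and those of pools 1 and 2 overlapped those of pools 3 and 4. The difference was 0.51 log2 (SE 0.10, adjusted p = 0.00324) after octanol and 0.52 log2 (SE 0.10, adjusted p = 0.00285) after vehicle. With arrays centred on odorant receptor genes it was 0.01 log2 (adjusted p = 0.941) after octanol and 0.22 log2 (adjusted p = 0.189) after vehicle.

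Cyp2u1, a hydroxylase of long-chain fatty acids, had 11.65, 12.03, 11.59 and 11.76 log2 in octanol GFP+ cells and 11.05, 11.10, 11.29 and 11.45 log2 in octanol GFP- cells. It had 11.76, 11.83, 11.96 and 11.95 log2 in vehicle GFP+ cells and 11.51, 11.06, 11.44 and 11.12 log2 in vehicle GFP- cells. Again every GFP+ value was above every GFP- value of its exposure. The difference was 0.53 log2 (SE 0.14, adjusted p = 0.0164) after octanol and 0.59 log2 (SE 0.14, adjusted p = 0.00994) after vehicle. Under receptor centring it was 0.03 log2 (adjusted p = 0.848) and 0.29 log2 (adjusted p = 0.168). It also lost its octanol call without octanol pool 1 (0.51 log2, adjusted p = 0.0617) or 2 (0.40 log2, adjusted p = 0.0727), and its vehicle call without vehicle pool 4 (0.51 log2, adjusted p = 0.0513).

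**Figure D4:**
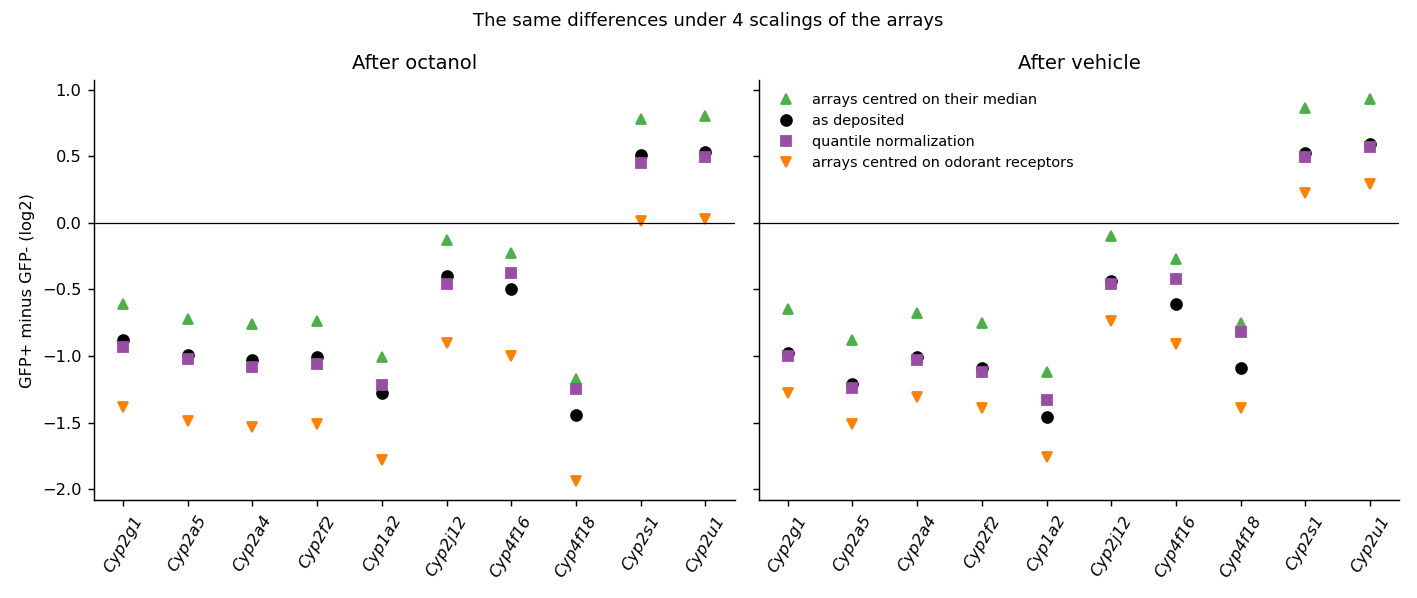
GFP+ minus GFP- difference (log2) of 10 P450 genes after octanol (left) and after vehicle (right) under 4 scalings: arrays centred on their median, as deposited, quantile normalised, and centred on odorant receptor genes. No gene changes sign, and Cyp2s1 and Cyp2u1 lie at 0.01 and 0.03 log2 after octanol when arrays are centred on odorant receptors.

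The scaling set the level that the differences are read against. The median difference of all genes after octanol was 0.14 log2 as deposited, 0.41 log2 with arrays centred on their median and -0.36 log2 with arrays centred on odorant receptor genes, and after vehicle 0.13, 0.46 and -0.17 log2. The split of higher against lower members moved with it, to 40 higher and 4 lower after octanol with median centring and to 0 higher and 24 lower with receptor centring. After vehicle, 44 were higher and 5 lower with median centring and 0 higher and 15 lower with receptor centring. All genes moved too: after octanol 58.5% were higher and 10.4% lower with median centring and 2.75% higher and 44.8% lower with receptor centring, and after vehicle 65.4% and 10.2%, and 3.23% and 22.5%.

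Several members lie in 1 stretch of the genome. On chromosome 7, the stretch with Cyp2s1 at one end and Cyp2t4 at the other holds 13 members, of which 5 were above background on all 16 arrays. Cyp2s1, at the outer edge beside Axl, was higher in GFP+ cells, while Cyp2g1, its next gene Cyp2a5 and Cyp2f2, further along, were lower. Cyp2b10, the main target of the nuclear receptor CAR (Nr1i3) in liver, lies next to Cyp2s1 and was above background on 11 arrays. Its difference was -0.25 log2 (95% interval -0.85 to 0.36) after octanol and -0.21 log2 (-0.81 to 0.40) after vehicle.

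Other members chosen by role did not pass the threshold. Cyp2j6, an epoxygenase above background on all arrays, differed by -0.14 log2 (95% interval -0.52 to 0.25) after octanol and 0.04 log2 (-0.34 to 0.42) after vehicle. Cyp4b1, known from lung, was above background on 13 arrays and differed by 0.08 log2 (-0.24 to 0.40) after octanol and 0.08 log2 (-0.25 to 0.40) after vehicle. Cyp3a13, with a mean under background, was above it on 4 arrays. It differed by -0.04 log2 (-0.40 to 0.32) after octanol and -0.17 log2 (-0.53 to 0.19) after vehicle.

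The proteins that serve P450s were lower in part. Of 15 listed partners 13 were measured, with 4 lower and 0 higher in GFP+ cells after each exposure and a median of -0.07 log2 after octanol and -0.06 log2 after vehicle. Alas1, the first enzyme of heme synthesis, differed by -0.85 log2 (adjusted p = 0.00014) after octanol and -0.75 log2 (adjusted p = 0.000331) after vehicle. Fech, which inserts iron to form heme, differed by -0.61 log2 (adjusted p = 0.00748) and -0.76 log2 (adjusted p = 0.00214). Both passed under all 4 scalings.

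Cyb5a, the cytochrome b5 that can donate an electron to P450s, differed by -0.45 log2 (adjusted p = 0.0355) after octanol and -0.51 log2 (adjusted p = 0.0226) after vehicle, and by -0.18 log2 after either exposure with median centring, where it did not pass. The heme synthesis enzyme Alad passed after octanol (-0.73 log2, adjusted p = 0.0272) and Urod after vehicle (-0.36 log2, adjusted p = 0.0235), neither with median centring or quantile normalization. Red cell precursors also make heme: the 2 erythroid genes measured, Alas2 and Slc4a1, were lower in GFP+ cells by -2.08 and -3.22 log2 after octanol and by -2.24 and -3.33 log2 after vehicle. Their part in the heme enzymes was not tested.

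Of 10 regulators of P450 genes, 5 were higher in GFP+ cells after octanol and 3 after vehicle, and 0 were lower. Of all genes, 16.7% were higher after octanol and 14.7% after vehicle. The median of the 10 was 0.37 log2 after octanol and 0.33 log2 after vehicle. Only 6 of the 10 had a mean above background, and the counts and medians include the others. The aryl hydrocarbon receptor gene Ahr differed by 0.65 log2 (adjusted p = 0.00572) after octanol and 0.59 log2 (adjusted p = 0.01) after vehicle, in the opposite direction to its target Cyp1a2. Rxra, the partner of several nuclear receptors, differed by 0.73 log2 (adjusted p = 0.00381) and 0.63 log2 (adjusted p = 0.00842). The glucocorticoid receptor gene Nr3c1 differed by 0.43 log2 (adjusted p = 0.0344) and 0.50 log2 (adjusted p = 0.0194). None of these 3 passed with arrays centred on odorant receptors, where Nr3c1 was at -0.07 log2 after octanol.

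Among 9 other oxidizing and hydrolysing enzymes, 0 were higher, and 2 were lower after octanol and 1 after vehicle, where 13.2% and 13.5% of all genes were lower. Their median was -0.22 log2 after octanol and -0.30 log2 after vehicle. The flavin monooxygenase Fmo5 was lower after octanol (-0.74 log2, adjusted p = 0.000323) and after vehicle (-0.37 log2, adjusted p = 0.0197), and Fmo1 after octanol (-0.61 log2, adjusted p = 0.0144). With median centring Fmo5 after vehicle was at -0.03 log2 and Fmo1 after octanol no longer passed (adjusted p = 0.0724).

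The second comparison asked whether octanol, whose pulses ran over the last hours in the chamber, changed these genes within a fraction. In limma, 0 of 72 members and 0% of all genes passed in GFP+ cells, and likewise 0 members and 0% of all genes in GFP- cells. At an unadjusted p under 0.05, 2 of 72 members were counted in GFP+ cells (3.73% of all genes) and 11 of 72 in GFP- cells (4.58% of all genes). The smallest adjusted p of a member was 1 in GFP+ and 0.982 in GFP- cells. Between octanol and vehicle the values of 0 members higher and 1 lower did not overlap in GFP+ cells (2.21% of all genes in either direction), and in GFP- cells those of 4 higher and 2 lower (2.57%).

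The members counted at an unadjusted p were mostly under background. The 2 in GFP+ cells, Cyp4f17 and Cyp4f14, were above it on no array, and 8 of the 11 in GFP- cells had means under it; the GFP+ pair was named after its values were seen. Among those 11, Cyp2j6 had 9.47, 9.75, 9.27 and 9.19 log2 on octanol GFP- arrays and 8.79, 9.29, 9.03 and 9.06 log2 on vehicle GFP- arrays. These overlap, and the difference was 0.38 log2 (95% interval 0.03 to 0.73, adjusted p = 0.982). Cyp2d10, above background on all 16 arrays and named after its values were seen, had 8.14, 7.96, 8.08 and 8.20 log2 on octanol GFP- arrays and 7.73, 7.80, 7.84 and 7.88 log2 on vehicle GFP- arrays. Its groups did not overlap, and the difference was 0.28 log2 (95% interval 0.04 to 0.53, adjusted p = 0.982). Cyp4b1 had 6.88, 7.10, 7.21 and 7.05 log2 on octanol GFP- arrays and 6.27, 6.52, 6.67 and 7.14 log2 on vehicle GFP- arrays, a difference of 0.41 log2 (0.02 to 0.80, adjusted p = 0.982) with overlap through vehicle replicate 4.

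The intervals bound what these arrays could show. For Cyp2g1 the octanol minus vehicle difference was 0.15 log2 (95% interval -0.56 to 0.86) in GFP+ cells and 0.05 log2 (-0.32 to 0.41) in GFP- cells. For Cyp2a5 it was 0.46 log2 (-0.40 to 1.33) and 0.25 log2 (-0.18 to 0.68), and for Cyp1a2 0.33 log2 (-0.31 to 0.98) and 0.16 log2 (-0.59 to 0.91). Cyp2s1 was held more tightly, with -0.12 log2 (-0.37 to 0.13) in GFP+ and -0.11 log2 (-0.43 to 0.22) in GFP- cells. Changes of over 2-fold in either direction lie outside the intervals of all of these except that of Cyp2a5 in GFP+ cells.

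**Figure D5:**
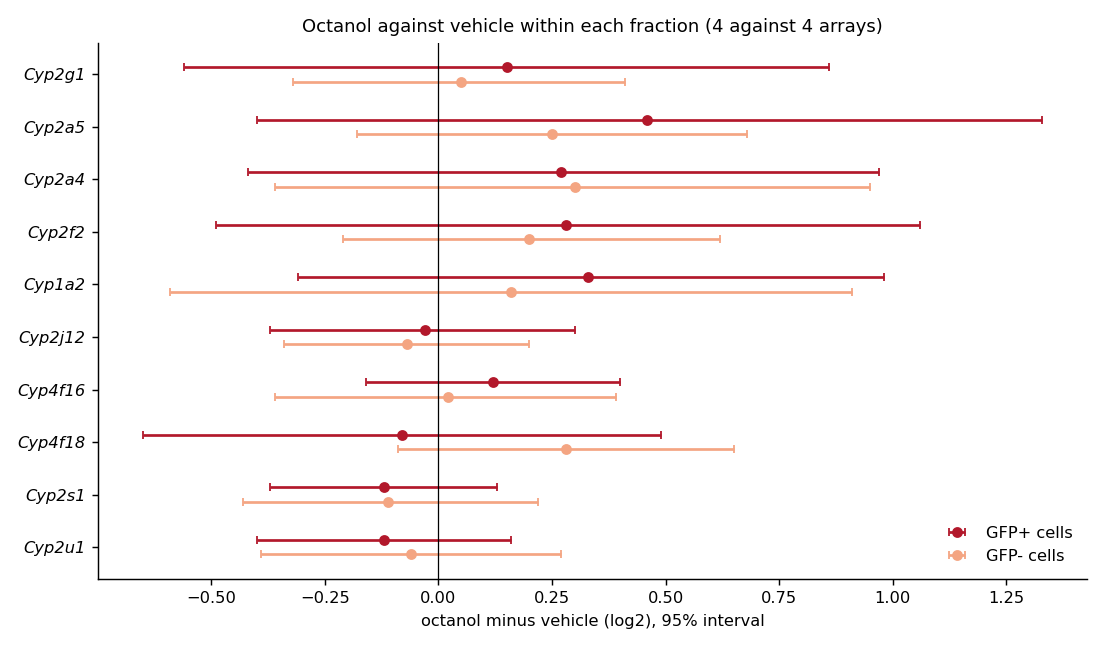
Octanol minus vehicle difference (log2, points) with its 95% interval (bars) for 10 P450 genes within GFP+ cells (dark red) and GFP- cells (light red), 4 arrays against 4. Every interval includes 0, and the widest is that of Cyp2a5 in GFP+ cells, -0.40 to 1.33 log2.

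The third comparison asked whether octanol changed the difference between fractions. In limma 0 of 72 members and 0% of all genes passed, and 1 of 72 had an unadjusted p under 0.05 (4.54% of all genes). That member, Cyp3a11, named after its values were seen, was above background on no array. For Cyp4f18 the change was -0.36 log2 (95% interval -1.07 to 0.35), for Cyp2a5 0.22 log2 (-0.70 to 1.13), and for Cyp2s1 -0.01 log2 (-0.32 to 0.29). No member of the partner, regulator, other enzyme or cell type lists passed in any of the octanol comparisons.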

How the data were processed

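Clariom S arrays of 16 samples were used. The authors used Affymetrix Expression Console, per the submitters' processing notes, and deposited log2 signals between 2.22 and 18.70, which were taken unchanged. For that program the sources used here give neither version nor settings. Groups came from the titles, and the titles of the vehicle arrays also carry the word octanol in brackets, while their source names give vehicle.

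Of 28846 probe sets, 19572 carry exactly 1 gene symbol. The probe set with the highest mean per gene was kept, which left out 67 and gave 19505 genes, all matched by Entrez number to RefSeq (GRCm38.p6). Cyp4v3 is not among them, and Cyp4a12b has a letter after its number, so neither is a member. The members and lists were chosen with earlier results of these data known. Values on every array are given for members above background on all 4 arrays of a group that passed in a comparison, and for members listed by role. Of a list, up to 4 members with the smallest p in a comparison are named.

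The fits used limma 3.58.1 (lmFit and eBayes, 2-sided) in R 4.3.3, tested on simulated data, with Benjamini-Hochberg adjustment over all genes and a threshold of 0.05. The fractions and their interaction were fitted on 16 arrays with the pool as a block, and octanol against vehicle on 8 arrays of each fraction without it. SE is the moderated standard error. The 4 arrays a group limit the precision. P-values of the fraction and interaction fits measure how the GFP+ minus GFP- difference varies between pools of mice. Those of octanol against vehicle measure the spread between pools within a fraction. Pairing of fractions by pool is inferred from the number of mice. Residuals of GFP+ and GFP- arrays of a pool had correlations of 0.0779 to 0.222 (over 0.1 in 6 of 8), with a mean of 0.16. Arrays of the 2 exposures that share a fraction and a number correlated at 0.058 to 0.332, with a mean of 0.181. Those are different mice, so the correlations cannot establish the pairing. The sources used here give no batches of sorting, labelling or scanning. Alternatives were other scalings, a filter on level, the mean over probe sets, other variance and block settings, and leaving out each pool. 2 were added after seeing the data: members with suffixed symbols, and no pools numbered 3.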

Additional observations from a re-analysis of the deposited data

Results flagged for a closer look

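Single arrays stood apart from the other 3 of their group in 7 of 72 groups tested (18 P450 genes in 4 groups), by Dixon's test at the 95% level, which flags about 1 group in 20 by chance. In octanol GFP- replicate 4, Cyp2a5 (14.83 log2), Cyp2f2 (13.32 log2), Cyp1a2 (9.37 log2) and Cyp1a1 (3.65 log2, under background) were each far below the other 3 arrays. The sustentacular list without P450s was also lowest on that array of the group, at 10.10 log2. In octanol GFP+ replicate 3, Cyp1a2 was far above the others at 10.01 log2. Cyp2a5 was low in vehicle GFP- replicate 1, at 14.77 log2. Cyp3a13 was high in octanol GFP- replicate 2, at 6.79 log2.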

How the results depend on the processing

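The counts of P450 genes in the fraction comparisons moved mostly with the scaling, as did those of all genes: with median centring 58.5% of all genes were higher after octanol and 65.4% after vehicle, and with receptor centring 44.8% and 22.5% were lower. Higher in GFP+ cells after octanol were 9 as deposited, 40 with arrays centred on their median, 0 with arrays centred on odorant receptors and 4 with only genes above background tested. Lower after octanol were 7, against 4 with median centring, 24 with receptor centring and 4 with a trended and robust variance. Higher after vehicle were 9, against 14 with quantile normalization, 44 with median centring, 0 with receptor centring and 2 with only genes above background. Lower after vehicle were 7, and 15 with receptor centring. With the level filter 25.2% of the genes tested were higher after octanol and 21.4% after vehicle. With quantile normalization 23.4% of all genes were higher after vehicle, and with the trended and robust variance 13.6% were lower after octanol. Leaving out 1 pool at a time gave 4 to 9 higher and 1 to 8 lower after octanol, and 4 to 8 higher and 2 to 8 lower after vehicle. Of all genes, 9.22% to 16% were then higher and 11.1% to 13.1% lower after octanol. After vehicle the shares were 8.84% to 14.8% and 11.7% to 13.4%. The octanol counts were lowest without octanol replicate 1 (4 higher, 2 lower) or 2 (5 higher, 1 lower), and the vehicle counts without vehicle replicate 1 (4 higher, 4 lower), 2 (2 lower) or 4 (5 higher). Why these counts moved was not tested, except that the level filter tests fewer genes and a left-out pool leaves fewer samples.

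Without the pool as a replicate block the counts were 7 higher and 8 lower after octanol and 7 higher and 9 lower after vehicle, and with the pool as a random block 10 and 8, and 9 and 9. Without both pools numbered 3 they were 6 higher and 6 lower after octanol and 8 higher and 6 lower after vehicle. Of all genes, 14.4% were higher and 12.7% lower after octanol without the block, and 12.6% and 13% after vehicle. With the random block the shares were 18.9% and 13.7%, and 16.8% and 14.2%. Without both pools numbered 3 the shares were 12.7% and 11.7%, and 9.28% and 11.6%. The octanol counts of P450 genes within a fraction, and of the octanol effect on the difference, were 0 under every setting run. Among the values of 10 named genes under these alternatives, 288 kept their direction and side of the threshold, 43 lost their call, 9 gained one and 0 changed sign. With a trended and robust variance, Cyp2g1, Cyp2a5 and Cyp2f2 lost their octanol calls (adjusted p = 0.076, 0.0664 and 0.067), and Cyp2g1 and Cyp2f2 their vehicle calls (adjusted p = 0.0571 and 0.0551).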
